A study of Mus musculus with 8 samples.

Results

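Mitochondria import nearly all of their proteins, and the genes described here encode the machinery that does this and that shapes the inner membrane. They are the protein-coding genes whose symbol begins with Timm or Tomm followed by a digit, together with Samm50, Mtx1, Mtx2, Chchd3, Chchd4, Chchd6, Immt, Apoo, Apool, Pam16, Pmpca, Pmpcb, Grpel1 and Grpel2. This rule works by symbol alone and gave 39 of the 22880 genes in the count files, but the group was chosen with earlier results of these data known. RNA was sequenced from the soleus, a postural calf muscle, of 4 control mice (Dnm2 +/+) and 4 Dnm2 +/K562E mice. All 8 were males of 2 months on the C57BL/6 background, given as C57BL/6J in the study's methods. Dnm2 +/K562E mice carry the point mutation at the endogenous Dnm2 locus on 1 allele in all of their cells, with a residual loxP site in a neighbouring intron, and the gene counts do not separate the alleles. The comparison asks how the transcriptome of the muscle differs between the genotypes. Counts are reads per gene and totalled between 33407430 and 48832814 per mouse. Levels are normalized CPM, that is counts relative to the library total after scaling with TMM factors (0.91 to 0.96 in controls, 1.04 to 1.10 in Dnm2 +/K562E mice), and differences are log2 fold changes of Dnm2 +/K562E over control from edgeR's quasi-likelihood test, with Benjamini-Hochberg adjustment over all 14001 tested genes. The count of Dnm2 itself, which the mutation does not remove, was 66.3 ± 4.74 normalized CPM in controls and 73.4 ± 2.43 in Dnm2 +/K562E mice (SD, n = 4 each), a difference that was not called (adjusted p = 0.0909). Low counts kept Timm8a2 (at most 2 counts in any mouse) and Tomm20l (0 counts in all 8 mice) out of the test, which left 37 tested members.

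Most mitochondrial proteins are made in the cytosol and enter through the TOM complex, the gate of the outer membrane. From there, beta-barrel proteins pass to the SAM complex, carrier proteins are guided by small chaperones of the intermembrane space to the TIM22 complex, and proteins with a presequence pass through the TIM23 complex into the matrix, pulled by the PAM motor and trimmed by the matrix processing peptidase MPP. MICOS holds the inner membrane in its folded shape at the crista junctions and touches SAM at the outer membrane. Slow and oxidative muscle fibres are rich in mitochondria and use this machinery heavily.

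Of the 37 tested members, 25 were lower in Dnm2 +/K562E soleus at an adjusted p under 0.05 and none was higher (edgeR quasi-likelihood test). Among all tested genes, 21.7% were lower and 22.2% higher by the same rule (43.8% in either direction). DESeq2 also gave 25 lower and 0 higher members, edgeR's exact test gave 24 and 0, and at an unadjusted p under 0.05 the quasi-likelihood test gave 26 lower members and 1 higher member, Tomm34. The median log2 fold change of the members was -0.34, beside 0.0074 over all tested genes, and 33 of the 37 had a negative value, as did 49.3% of all tested genes. With the additional limit of 0.58 on the log2 fold change that the study used, 3 members were lower, Timm21, Apoo and Mtx1, and none was higher, against 7.85% of all tested genes lower and 12.9% higher. Without control 4 this count was 6, and without Dnm2 +/K562E mouse 4 it was 5. In 22 of the 37 members every Dnm2 +/K562E mouse lay below every control, a separation that 20.5% of all tested genes showed. In 1 member, Tomm34, every Dnm2 +/K562E mouse lay above every control, as in 20.6% of all tested genes. The members' log2 fold changes ran from -0.80 (Timm21) to 0.25 (Tomm34). Scaling by library size alone shifted the median of all genes to 0.22. On that scale 14 members were lower and 3 (Chchd6, Timm22 and Tomm34) higher. With either scaling 34 of the 37 members lay below the median of all genes. This count cannot show whether the calls depend on the scaling, which shifts all genes nearly alike. In 6 tested members over 30% of the 31-base stretches of their transcripts also occur in other genes, and without these 20 of 31 members were lower. Exons of 13 tested members overlap a gene on the opposite strand.

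**Figure D1:**
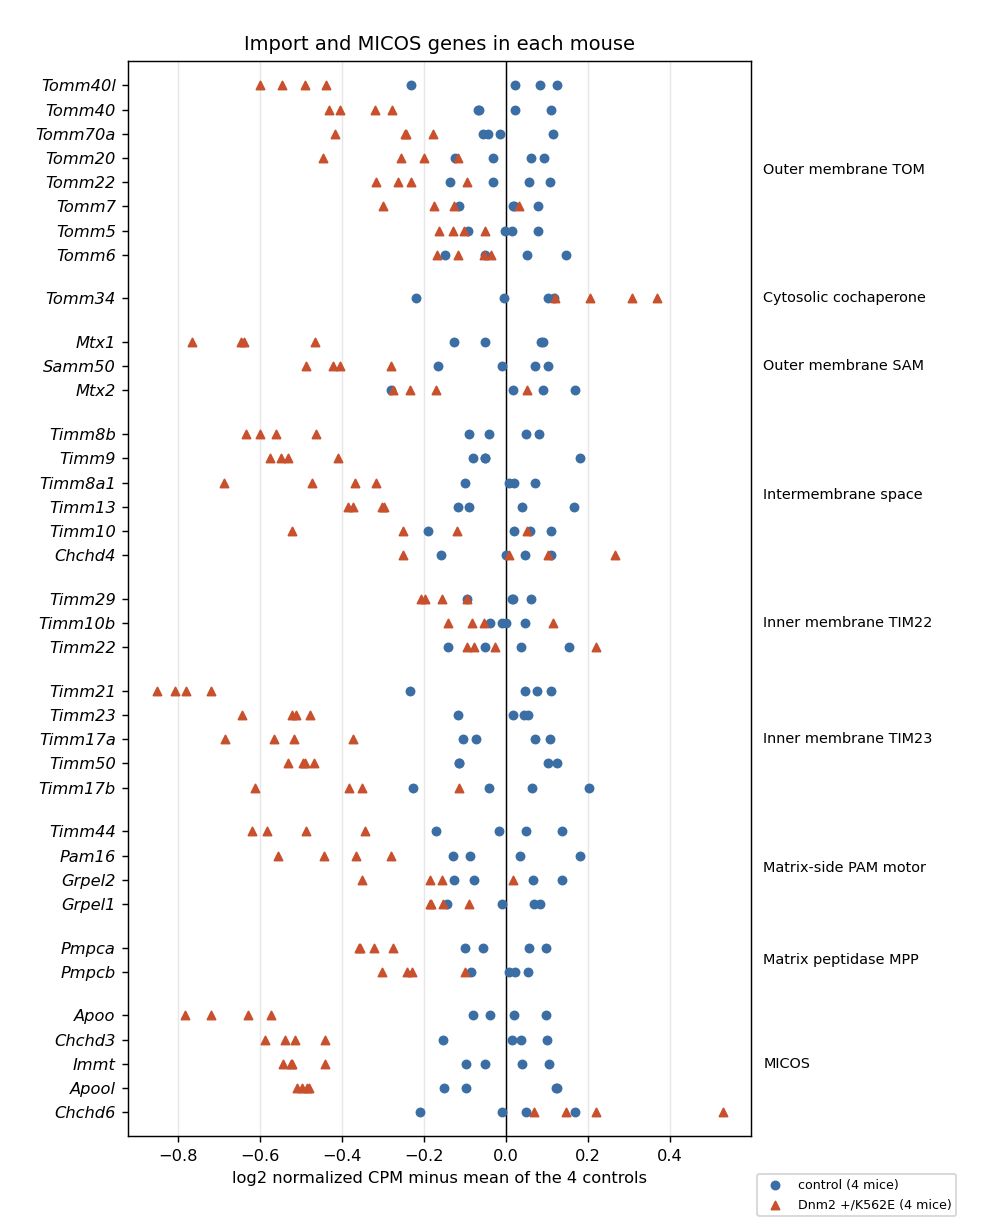
Each row is a tested member, grouped by role, and each point is a mouse, plotted as log2 normalized CPM minus the mean of the 4 controls (blue circles, controls; red triangles, Dnm2 +/K562E mice). In 22 rows the 4 triangles lie to the left of all 4 circles, with the widest gaps for Apoo and Timm21, while in the rows of Tomm6, Timm10b and Timm22 they mix with the circles.

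The muscle itself differed between the genotypes, with markers of some cell types lower and of others higher. Of 7 markers of slow fibres, 6 were lower and none higher (median log2 fold change -0.54), and their summed level was 19556 to 23042 in controls and 11340.5 to 14342 in Dnm2 +/K562E mice (normalized CPM). Of 8 markers of fast fibres, 6 were lower and none higher (median -0.69), with sums of 41818 to 43262 in controls and 25583 to 30525 in Dnm2 +/K562E mice. All of these fibre markers were present in all 8 mice, with none at 0. The fast-fibre marker Myh4 was uneven, at 163 to 3134 normalized CPM in controls, highest in control 4. In Dnm2 +/K562E mice it was at 34.0 to 50.9. All 7 macrophage markers were higher (sums of 72.8 to 135 in controls and 179 to 296 in Dnm2 +/K562E mice), as were all 6 fibroblast markers (2366 to 3667 in controls and 5209 to 6837 in Dnm2 +/K562E mice). All 5 endothelial markers were lower (862 to 900.2 in controls and 616 to 705 in Dnm2 +/K562E mice), as were the 3 satellite cell markers (13.5 to 17.0 in controls and 2.30 to 4.18 in Dnm2 +/K562E mice). Of the 5 Schwann cell markers only Mbp was lower. Sums over these 5 were 158 to 178 in controls and 132 to 165 in Dnm2 +/K562E mice. None of the 5 adipocyte markers passed the test (sums of 416 to 643 in controls and 392 to 545 in Dnm2 +/K562E mice). In bulk muscle, fewer cells of a type and less RNA per cell cannot be told apart, and the part of these shifts in the members' values was not tested.

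Since most members moved in 1 direction, their promoters were searched for short motifs of factors known to act on genes for mitochondrial proteins. RefSeq promoter windows on GRCm38.p6, from 250 bases before to 50 after a transcription start, were found for 33 of the 37 tested members (36 windows). Grpel2, Timm21, Tomm40l and Tomm7 were not searched. Both strands were searched for exact letters. The core of the YY1 motif, ATGGCGG, occurred in 7 of the 36 windows (19.4%), compared with 4.05% of all 32851 windows and 7.27% of the 13788 windows of tested protein-coding genes. The windows around it are shown because in 6 of the 7 genes the motif lies in the same place, in the direction of the gene and beginning 10 to 19 bases after the start, with the motif in capitals.
Mtx1, chr3:89213879-89213901 (minus strand): cgtacaagATGGCGGcgcccatg
Timm50, chr7:28312018-28312040 (minus strand): agcgcaagATGGCGGcctcggcg
Samm50, chr15:84192244-84192266 (plus strand): ggtacaacATGGCGGcgctcggc
Timm44, chr8:4275873-4275895 (minus strand): cttccaacATGGCGGcggcagct
Pmpcb, chr5:21737170-21737192 (plus strand): ccgcagagATGGCGGcggccgct
Grpel1, chr5:36465186-36465208 (plus strand): gggcagtcATGGCGGctcggtgt
Timm8b, chr9:50603775-50603797 (plus strand): taagagaaCCGCCATgtcgcttt
In Timm8b the letters are the reverse complement and begin 118 bases before the start. A forward match beginning within the first 30 bases after the start was present in 16.7% of the member windows, 0.898% of all windows and 1.93% of those of tested protein-coding genes, a limit chosen after the positions were seen. In 4 of these 6 genes (Timm50, Timm44, Pmpcb and Grpel1) the ATG of the match is also the annotated start codon. The longer form in which AAG precedes the core was present in Mtx1 and Timm50 (5.56% of member windows, 0.852% of all windows and 1.80% of those of tested protein-coding genes).

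The core site of the oestrogen-related receptors, AAGGTCA, occurred in 4 member windows (11.1%, compared with 4.72% of all windows and 3.23% of those of tested protein-coding genes). Receptors of this family are known activators of genes for mitochondrial proteins in oxidative muscle.
Timm8b, chr9:50603799-50603821 (plus strand): gagggctcAAGGTCActctacaa
Timm44, chr8:4275896-4275918 (minus strand): gacgcaggAAGGTCAcacgggct
Timm23, chr14:32201863-32201885 (minus strand): gcgcccggAAGGTCAgcgtggtg
Chchd6, chr6:89595809-89595831 (minus strand): agaaaccaTGACCTTgtctcagc
In Chchd6 the capitals are the reverse complement of this site. The site of Timm8b, 94 bases before the start, was the only one in the longer form TCAAGGTCA (2.78% of member windows, 0.423% of all and 0.268% of those of tested protein-coding genes). The ETS motif CCGGAAGT was present in 7 windows (19.4%, compared with 3.89% of all and 7.30% of those of tested protein-coding genes), those of Mtx2, Pmpcb, Timm10, Timm10b, Timm23, Timm29 and Tomm70a. The E-box CACGTG was present in 5 (13.9%, compared with 7.15% of all and 9.60% of those of tested protein-coding genes). The NRF1 form GCATGCGC was found in Grpel1 and Timm13 (5.56%, compared with 2.71% of all and 4.77% of those of tested protein-coding genes). The full NRF1 motif, in which GC precedes these letters, and the CREB motif TGACGTCA were found in none of the member windows (0.971% and 1.79% of all, 1.87% and 2.82% of those of tested protein-coding genes). Each match describes letters in a window and is not evidence of binding. Genes with the YY1 core, the oestrogen-related receptor site or the ETS motif were found both among members that passed the test (Timm44, Pmpcb) and among those that did not (Grpel1, Chchd6, Mtx2).

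In the TOM complex, 5 of the 8 tested genes were lower (Tomm40l, Tomm40, Tomm70a, Tomm20 and Tomm22) and 3 did not pass the test (Tomm7, Tomm5 and Tomm6), with a median log2 fold change of -0.24. Tomm40l encodes a paralog of the pore-forming barrel Tomm40 and was the TOM gene with the lowest value. Its level was 61.6, 63.3, 59.0 and 49.5 normalized CPM in controls 1 to 4 and 39.7, 38.3, 41.4 and 42.9 in Dnm2 +/K562E mice 1 to 4. All Dnm2 +/K562E mice lay below all controls, and the log2 fold change was -0.52 ± 0.082 (SE, adjusted p = 4.54e-04). Exons of Tomm40l overlap those of Nr1i3 on the other strand over 64.3% of its length, and as the use of strand in the counting is not stated, reads of the 2 genes may have been mixed. For the pore gene Tomm40 itself the log2 fold change was -0.36 ± 0.067 (SE, adjusted p = 0.00144). The receptor genes Tomm70a, Tomm20 and Tomm22, whose proteins recognise incoming precursors, had values of -0.27, -0.25 and -0.23. In contrast, the genes for the 3 small subunits around the pore had values between -0.14 (Tomm7) and -0.097 (Tomm6). With a correction for length and GC content they were nearer 0, at -0.074 for Tomm7, -0.023 for Tomm5 and -0.025 for Tomm6. Tomm6 was at 30.2, 34.8, 32.4 and 37.2 normalized CPM in controls 1 to 4 and 32.7, 32.3, 29.9 and 30.9 in Dnm2 +/K562E mice 1 to 4, and the genotypes overlapped. Its log2 fold change was -0.097 (95% interval -0.26 to 0.068, adjusted p = 0.319). Exons of Tomm6 coincide over 75.95% of their length with the model Gm21981 on the same strand, so that a read can be counted for both. The call of Tomm20 and Tomm22 was less firm than that of the other TOM genes, since it was lost in 5 and 9 of the 18 alternatives tried.

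Tomm34 encodes a cytosolic cochaperone that binds Hsp70 and Hsp90 and takes part in keeping precursors import-competent, and it is not a subunit of TOM. Its level was 16.2, 12.8, 16.0 and 14.9 normalized CPM in controls 1 to 4 and 16.2, 17.2, 19.3 and 18.5 in Dnm2 +/K562E mice 1 to 4. Every Dnm2 +/K562E mouse lay above every control, but Dnm2 +/K562E mouse 1 only just exceeded control 1. The log2 fold change was 0.25 (95% interval 0.039 to 0.46, adjusted p = 0.0545), which did not pass the test. It did pass without control 1, without Dnm2 +/K562E mouse 1, with at least 10 counts required in every mouse and with library size alone.

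In the SAM complex, Mtx1 and the barrel gene Samm50 were lower and Mtx2 was not called. Mtx1 (metaxin 1, chromosome 3, 89209081 to 89227088, minus strand on GRCm38) was 1 of the 3 members past both thresholds. Its level was 17.9, 20.8, 18.9 and 20.8 normalized CPM in controls 1 to 4 and 12.5, 12.5, 11.5 and 14.2 in Dnm2 +/K562E mice 1 to 4. The genotypes did not overlap, and the level in Dnm2 +/K562E mice was 64.6% of the control level by the fit, which on the log2 scale is -0.63 ± 0.089 (SE, adjusted p = 2.21e-04). Samm50, whose protein inserts beta-barrels into the outer membrane, had -0.40 ± 0.072 (SE, adjusted p = 0.00118). Mtx2 (metaxin 2, the partner of metaxin 1) was at 64.2, 61.0, 67.7 and 49.6 in controls 1 to 4 and 49.8, 51.2, 53.5 and 62.5 in Dnm2 +/K562E mice 1 to 4 (normalized CPM). Control 4 was the lowest of the 8 mice and Dnm2 +/K562E mouse 4 was above control 2, so the genotypes overlapped. Its log2 fold change was -0.16 (95% interval -0.39 to 0.066, adjusted p = 0.230), and without control 4 it was -0.25 and passed the test. Exons of Mtx1 overlap Thbs3 on the other strand over 8.87% of their length, and other gene models hold 24.7% of the 31-base stretches of Mtx1.

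Of the 6 tested genes of the intermembrane space, the small TIM genes Timm8b, Timm9, Timm8a1 and Timm13 were lower, and Timm10 and Chchd4 were not called (median -0.40). The small TIM proteins form chaperone rings that carry hydrophobic precursors across the space. Timm8b, the member with the highest level per kilobase of exon in controls (154 CPM per kb), was at 77.4, 82.3, 84.1 and 74.7 normalized CPM in controls 1 to 4 and 51.3, 52.4, 53.9 and 57.7 in Dnm2 +/K562E mice 1 to 4. The genotypes were well separated, and the log2 fold change was -0.57 ± 0.064 (SE, adjusted p = 5.11e-05). The fold changes of Timm9, Timm8a1 and Timm13 were -0.52, -0.46 and -0.34, each without overlap between the genotypes. The model Gm9797 holds 41.8% of the 31-base stretches of Timm8a1, which makes its count less certain. Timm10, the partner of Timm9 in the main chaperone ring, had a log2 fold change of -0.20 (95% interval -0.46 to 0.056, adjusted p = 0.186), and with the correction for length and GC content it was -0.099. Chchd4 encodes the receptor of the disulphide relay that traps small TIM proteins in the intermembrane space. It was at 16.1, 19.4, 18.5 and 17.9 normalized CPM in controls 1 to 4 and 18.03, 15.1, 19.2 and 21.6 in Dnm2 +/K562E mice 1 to 4, and Dnm2 +/K562E mice were both the lowest and the highest of the 8. Its log2 fold change was 0.040 (95% interval -0.20 to 0.28, adjusted p = 0.794), or 0.023 with that correction, and its sign turned when control 1 or Dnm2 +/K562E mouse 4 was left out.

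The 2 inner membrane translocases differed in how many of their genes passed the test, though this difference was not itself tested. All 5 genes of the TIM23 complex were lower (median -0.54). The lowest of all members was Timm21, whose protein links the TIM23 complex to TOM and to the respiratory chain. Timm21 was at 32.8, 33.6, 32.1 and 26.4 normalized CPM in controls 1 to 4 and 17.2, 17.8, 18.1 and 18.9 in Dnm2 +/K562E mice 1 to 4. Control 4 was the lowest control, yet every Dnm2 +/K562E mouse lay below it, and the fitted level was 57.6% of the control level. The log2 fold change was -0.80 ± 0.084 (SE, adjusted p = 3.19e-05). The channel gene Timm23 had -0.54 ± 0.062 (SE, adjusted p = 5.54e-05), its partner Timm17a -0.54 and the presequence receptor gene Timm50 -0.50, each without overlap. Other gene models, mainly Gm10273, hold 63.4% of the 31-base stretches of Timm23. Timm17b, the second gene for the Timm17 subunit, was at 17.9, 24.1, 21.9 and 20.4 normalized CPM in controls 1 to 4 and 16.4, 13.7, 16.1 and 19.3 in Dnm2 +/K562E mice 1 to 4. Dnm2 +/K562E mouse 4 lay above control 1, and the log2 fold change was -0.37 ± 0.12 (SE, adjusted p = 0.0279). This call was lost in 7 of the 18 alternatives.

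In the TIM22 complex, which inserts carrier proteins into the inner membrane, 1 of 3 genes was lower (median -0.037). Timm22, the channel gene, was at 27.9, 29.7, 32.2 and 26.2 normalized CPM in controls 1 to 4 and 27.4, 28.4, 27.1 and 33.7 in Dnm2 +/K562E mice 1 to 4. The genotypes overlapped and the log2 fold change was 0.0063 (95% interval -0.19 to 0.21, adjusted p = 0.961), with a sign that depended on the setting. Timm10b, the small TIM that docks at this translocase, had -0.037 (95% interval -0.20 to 0.12, adjusted p = 0.709). Timm29 was the gene called lower. It was at 57.8, 64.4, 62.3 and 62.4 normalized CPM in controls 1 to 4 and 55.4, 53.4, 53.8 and 57.7 in Dnm2 +/K562E mice 1 to 4, and the highest Dnm2 +/K562E mouse lay just below the lowest control. The log2 fold change of -0.16 ± 0.059 (SE, adjusted p = 0.0418) was close to the threshold and lost its call in 12 of the 18 alternatives. Timm29 (chromosome 9, 21592722 to 21595970, plus strand on GRCm38) lies 84963 bases from Dnm2 on the same chromosome, the nearest member to the mutated gene.

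On the matrix side, the PAM motor genes Timm44 and Pam16 were lower, whereas the nucleotide exchange factor genes Grpel1 and Grpel2 were not called. Timm44 tethers the Hsp70 motor to the channel and was at 73.0, 65.5, 68.6 and 58.9 normalized CPM in controls 1 to 4 and 43.2, 44.3, 47.2 and 52.2 in Dnm2 +/K562E mice 1 to 4. All Dnm2 +/K562E mice lay below all controls, and the log2 fold change was -0.51 ± 0.084 (SE, adjusted p = 6.14e-04). Pam16, a regulator of the motor, had -0.41 ± 0.091 (SE, adjusted p = 0.00382). Grpel1 was at 82.9, 87.5, 88.4 and 75.5 normalized CPM in controls 1 to 4 and 75.01, 73.4, 73.5 and 78.3 in Dnm2 +/K562E mice 1 to 4. Control 4 was the lowest control and lay within the range of the Dnm2 +/K562E mice, and the log2 fold change was -0.16 (95% interval -0.30 to -0.014, adjusted p = 0.0713). Without control 4 it was -0.21 and passed the test. Its paralog Grpel2 had -0.17 (95% interval -0.38 to 0.041, adjusted p = 0.175). Both subunits of MPP were lower. Pmpca was at 139, 155, 159 and 143 normalized CPM in controls 1 to 4 and 119, 116, 116 and 123 in Dnm2 +/K562E mice 1 to 4, and the log2 fold change was -0.33 ± 0.060 (SE, adjusted p = 0.00123). Pmpcb was at 99.1, 98.2, 101 and 91.9 normalized CPM in controls 1 to 4 and 82.5, 83.3, 79.1 and 91.0 in Dnm2 +/K562E mice 1 to 4, with -0.22 ± 0.062 (SE, adjusted p = 0.0148). In both genes the genotypes did not overlap, but for Pmpcb Dnm2 +/K562E mouse 4 came within 1 normalized CPM of control 4.

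**Figure D2:**
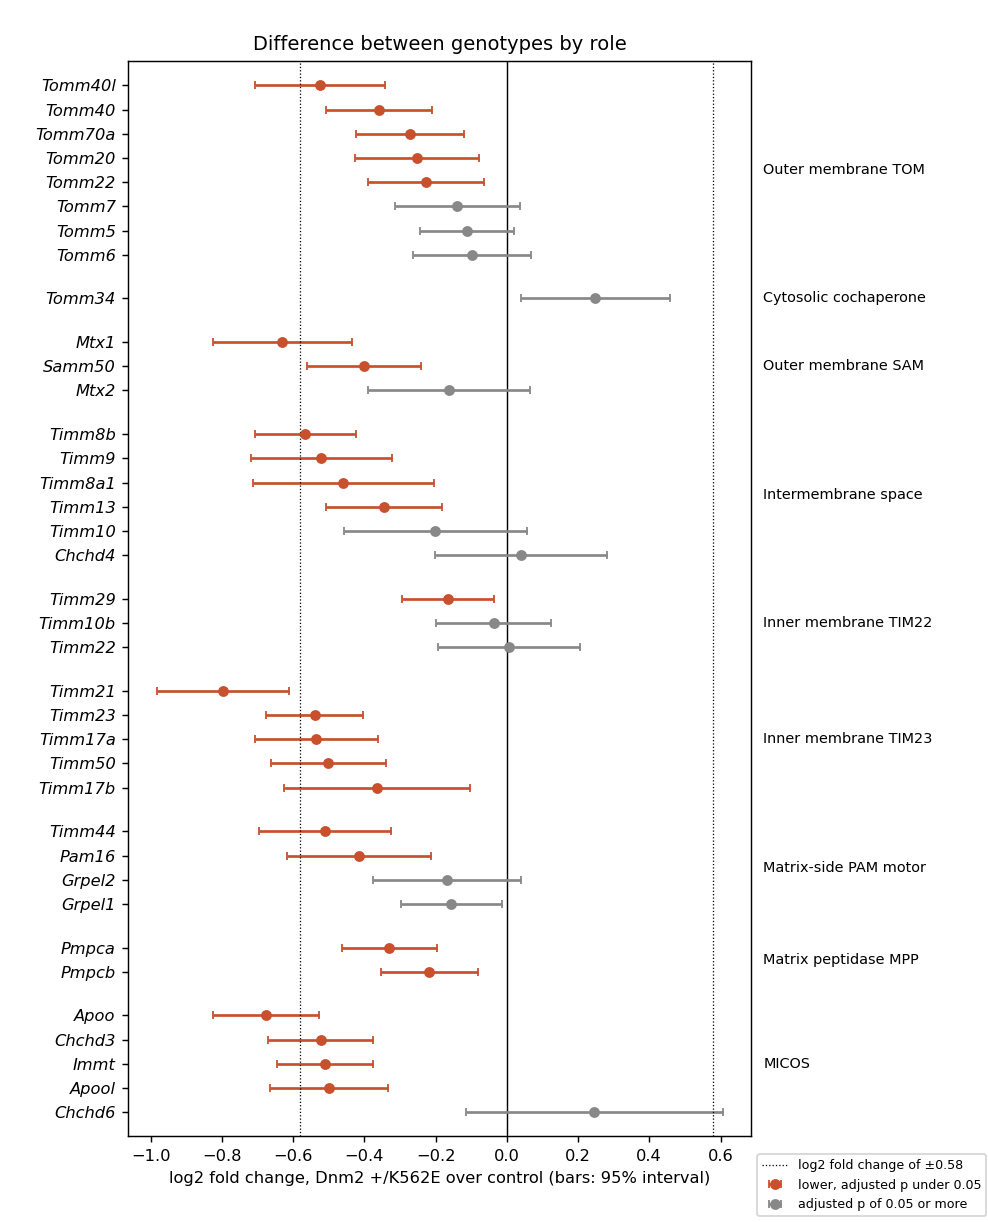
Points give the log2 fold change of Dnm2 +/K562E over control for each tested member and bars its 95% interval (4 mice per genotype; red, lower at an adjusted p under 0.05; grey, not called; dotted lines, ±0.58). The points of the TIM23 complex and of MICOS without Chchd6 lie between -0.80 and -0.37, whereas those of the TIM22 complex lie between -0.16 and 0.0063.

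Of the 5 MICOS genes, Apoo, Chchd3, Immt and Apool were lower (median over all 5 -0.51), and Chchd6 was not called. Apoo (chromosome X, 94367117 to 94417093, plus strand on GRCm38) encodes a lipid-binding MICOS subunit. Its level was 71.6, 78.7, 74.6 and 69.6 normalized CPM in controls 1 to 4 and 42.7, 47.5, 49.4 and 44.7 in Dnm2 +/K562E mice 1 to 4. The genotypes were far apart, the fitted level in Dnm2 +/K562E mice was 62.6% of the control level, and the log2 fold change was -0.68 ± 0.067 (SE, adjusted p = 2.20e-05). The processed copy Apoo-ps holds 43.3% of its 31-base stretches, so part of its reads may have been lost or assigned there. Immt encodes mitofilin, the core of MICOS, and had -0.51 ± 0.061 (SE, adjusted p = 7.88e-05). The related Apool had -0.50 ± 0.076 (SE, adjusted p = 3.53e-04), and its 4 Dnm2 +/K562E mice lay close together, between 30.5 and 31.2 normalized CPM.

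Chchd3 and Chchd6 encode related coiled-coil-helix subunits of MICOS, and they differed in level and in the sign of the fitted change. Chchd3 was at 385, 379, 402 and 337 normalized CPM in controls 1 to 4 and 249.3, 258, 263 and 276 in Dnm2 +/K562E mice 1 to 4. The genotypes did not overlap and the log2 fold change was -0.52 ± 0.067 (SE, adjusted p = 1.17e-04). Chchd6 was at 2.502, 2.88, 3.27 and 3.00 normalized CPM in controls 1 to 4 and 4.21, 3.04, 3.39 and 3.22 in Dnm2 +/K562E mice 1 to 4, and Dnm2 +/K562E mouse 1 was the highest. The log2 fold change was 0.25 (95% interval -0.11 to 0.61, adjusted p = 0.247). Per kilobase of exon, Chchd3 stood at 129 CPM and Chchd6 at 1.15 CPM in controls, second and last among the 37 members. Neither gene shares a 31-base stretch with another gene model.

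To see whether related members moved unequally, the log2 ratio of 8 pairs of paralogs or partners was taken within each mouse, a value in which the scaling of the library cancels but for the small prior count. The Chchd3/Chchd6 log2 ratio was 7.23, 7.01, 6.92 and 6.79 in controls 1 to 4 and 5.87, 6.38, 6.25 and 6.40 in Dnm2 +/K562E mice 1 to 4. It was lower in all 4 Dnm2 +/K562E mice than in any control, with a mean difference of -0.76 (exact two-sided permutation test, p = 0.0286, adjusted over the 8 pairs 0.114). The Mtx1/Mtx2 log2 ratio was -1.84, -1.55, -1.84 and -1.25 in controls 1 to 4 and -1.98, -2.03, -2.21 and -2.14 in Dnm2 +/K562E mice 1 to 4. It too did not overlap between the genotypes (mean difference -0.47, exact two-sided permutation test, p = 0.0286, adjusted 0.114). A p of 0.0286 is the smallest that 4 against 4 mice can give, and neither pair passed the adjustment over 8 pairs. For the other 6 pairs the genotypes overlapped. Their mean differences were -0.18 for Apoo/Apool, -0.17 for Timm17a/Timm17b, -0.11 for Pmpca/Pmpcb, 0.016 for Grpel1/Grpel2, 0.10 for Timm8a1/Timm8b and 0.16 for Tomm40/Tomm40l, with exact permutation p-values from 0.0571 to 0.8286.

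**Figure D3:**
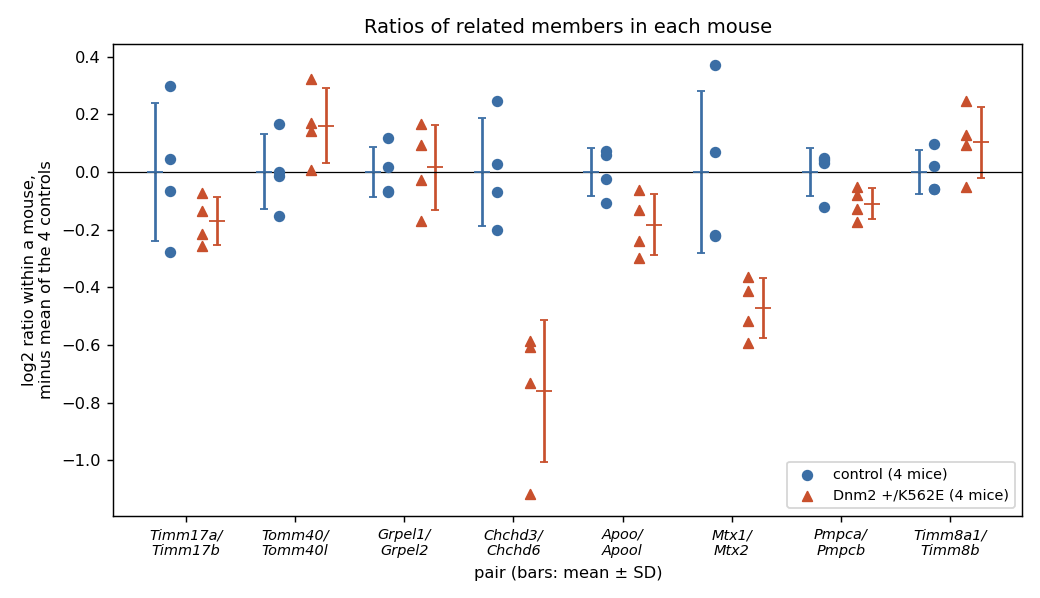
For each of the 8 pairs, points give the log2 ratio of the 2 genes within a mouse minus the mean of the 4 controls (blue circles, controls; red triangles, Dnm2 +/K562E mice), with bars for mean ± SD. The triangles lie below all circles for Chchd3/Chchd6 and Mtx1/Mtx2 and overlap the circles in the other pairs.

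The level of a member in controls ranged, per kilobase of exon, from 154 CPM for Timm8b to 1.15 CPM for Chchd6. After Timm8b and Chchd3 came Timm23 (93.9), Apoo (58.7) and Tomm5 (57.6). Lengths are those of all annotated exons joined, which sets genes with long or many transcripts too low. Across the 37 members, which share the same 8 libraries, the log2 fold change had a Pearson correlation of -0.35 and a Spearman correlation of -0.22 with the control level per kilobase. The Pearson correlations were -0.042 with exon length and 0.15 with GC content. Members varied little between mice of 1 genotype, with a median coefficient of variation of 7.37% in controls (2.43% to 12.9%) and 6.45% in Dnm2 +/K562E mice (0.904% to 16.4%). Many also shifted alike between mice of 1 genotype. Control 4 was the lowest control in 21 members and control 1 in 15, while Dnm2 +/K562E mouse 4 was the highest of its genotype in 26. The same counts were not taken over all tested genes, so these shifts are not shown to be particular to the members. Averaged over members, the log2 level relative to the mean of the controls was -0.042, 0.057, 0.067 and -0.082 in controls 1 to 4 and -0.34, -0.38, -0.31 and -0.23 in Dnm2 +/K562E mice 1 to 4. The macrophage and fibroblast sums were highest in control 4 among controls (135 and 3667 normalized CPM) and lowest in mouse 4 among Dnm2 +/K562E mice (179 and 5209). In control 1 they were 76.4 and 2918. The slow-fibre sum was the lowest of the genotype in control 4 (19556) and in Dnm2 +/K562E mouse 4 (11340.5), so it did not follow the members in the latter. The fast-fibre sum was the highest of the genotype in both (43262 and 30525), with Myh4 alone at 3134 in control 4. The part of these differences in the members' values was not tested.

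Most other genes of the same pathway were lower too. Of 31 further genes for motor, processing, insertion and inner membrane proteins, 24 were lower and none higher (edgeR quasi-likelihood test), with a median log2 fold change of -0.39. The 7 others were not called. By the same rule 21.7% of all tested genes were lower and 22.2% higher. The lowest was Immp2l, a subunit of the inner membrane peptidase, at -0.63 (adjusted p = 0.00320), the only gene of the list past both thresholds, and the highest was the outer membrane insertase gene Mtch1, at 0.12 (adjusted p = 0.0930). Beside these, the median over 37 complex I subunits was -0.64 (37 lower) and that over 77 genes of the mitochondrial ribosome was -0.35 (57 lower, 1 higher). The members' median of -0.34 thus lay near that of the mitochondrial ribosome and above that of complex I, as values side by side, with no test of the difference.

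**Figure D4:**
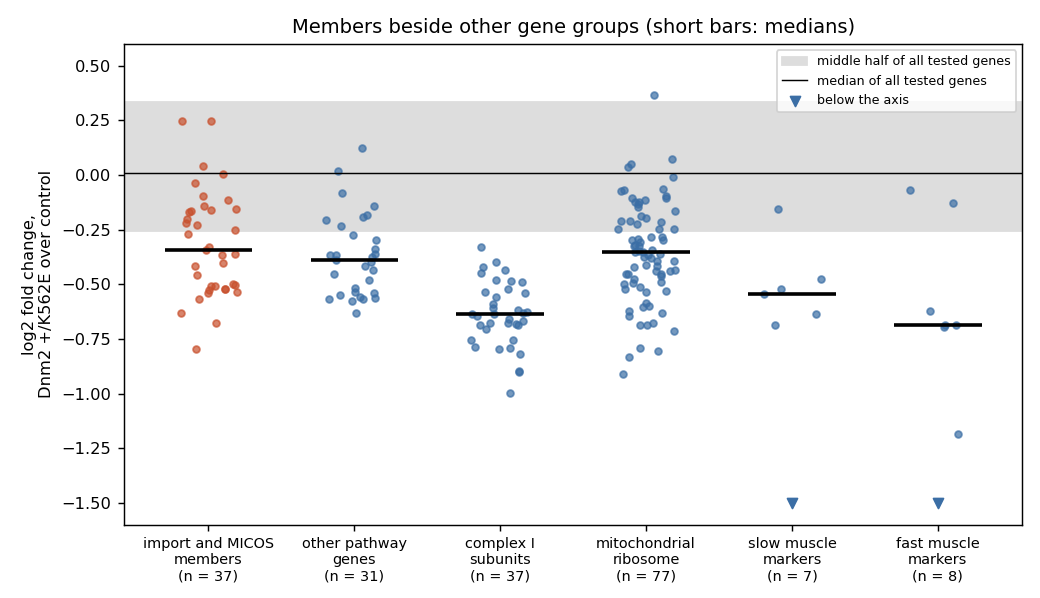
Each point is a gene and gives its log2 fold change, Dnm2 +/K562E over control, in 6 groups of genes, with short bars for group medians and a grey band between the quartiles of all tested genes. The median of the 37 members, -0.34, lies below the grey band and near the -0.35 of the mitochondrial ribosome, and the complex I subunits centre lower, at -0.64. Myl3 and Myh4, below the axis, are drawn as downward triangles at its foot.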

How the data were processed

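Soleus RNA of 8 mice was analysed. The authors trimmed reads with Trimmomatic 0.33, aligned them to GRCm38.p5 with STAR 2.5.1b and counted them per Ensembl gene with featureCounts, and deposited raw counts. The authors' settings counted reads overlapping several genes for each, and multi-mapping reads at the primary alignment. They also required a minimum mapping quality, and how many multi-mapping reads passed it was not examined. The paper describes poly A-enriched libraries and the labels a stranded total RNA kit, and the strand setting of the counting is not given in the sources used here. The description of Dnm2 +/K562E mouse 1 spells the mutation differently from its genotype label, which was used.

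Of 22880 gene IDs, 22647 matched GENCODE M21. Counts were filtered (filterByExpr, minimum count 10, total 15), scaled (TMM) and tested with edgeR 4.0.16 in R 4.3.3. Standard errors are those implied by the F statistic. Log2 ratios used a prior count of 2 and exact permutation tests (scipy 1.17.1). Shared 31-base stretches were counted on both strands of all GENCODE transcripts. Genes given mouse by mouse were those called at both thresholds, the lowest and highest of each role group and pairs without overlap. Members and lists were chosen with earlier results of these data known. Mice of 1 genotype differed by more than sampling noise (chi-square statistics at least 13.0 times their degrees of freedom). Alternatives were DESeq2 1.42.0, edgeR's exact test, other scalings and filters, replicate blocks, a length and GC correction (mgcv 1.9.3) and leaving out each mouse. The fitting was also run on simulated data, in which the changes were larger than those of any member. That run cannot show how well changes of the members' size are recovered.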

Additional observations from a re-analysis of the deposited data

Results flagged for a closer look

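Timm9, a small chaperone gene of the intermembrane space, had 1 control far from the others. Control 2 was at 16.2 normalized CPM, while the other 3 controls lay between 13.5 and 13.8, and the gap to the nearest of them was 0.893 of the range of the group. All 4 controls stayed above the 4 Dnm2 +/K562E mice, and the call held when control 2 was left out. Of 74 groups of 4 mice examined in this way, no other had such a gap, and chance alone gives about 1 in 20.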

How the results depend on the processing

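Of the 18 alternatives, 17 gave 21 to 26 lower members and a median log2 fold change between -0.39 and -0.30. Library size alone gave 14 lower, 3 higher and 1 lower at both thresholds, with a median of -0.13. On that scale the sign turned for Mtx2 (0.049), Timm10 (0.0092), Tomm5 (0.0996), Tomm7 (0.071), Grpel1 (0.057), Timm10b (0.17), Timm29 (0.046), Tomm6 (0.11) and Grpel2 (0.045). Here all genes shift by the scaling itself. The count of members below the median of all genes, 34, can therefore hardly change and does not test the scaling. Leaving out 1 mouse gave 21 to 26 lower, 0 to 1 higher and 3 to 6 lower at both thresholds (6 without control 4, 5 without Dnm2 +/K562E mouse 4). Tomm34 was called higher without control 1, without Dnm2 +/K562E mouse 1 and with at least 10 counts in every mouse (1 higher member each), and the cause was not tested. Among values near 0, Timm22 was at -0.00040 without mitochondrially encoded genes and between -0.070 and 0.058 when a mouse was left out, Chchd4 between -0.043 and 0.13, and the Grpel1/Grpel2 ratio between -0.035 and 0.078. The call changed in 12 alternatives for Timm29, 9 for Tomm22, 7 for Timm17b and 5 for Tomm20. Members lower under all 18 alternatives numbered 14, the same 14 that were lower with library size alone. Under all alternatives but that one, 20 members were lower. The share of all tested genes that held in this way was not taken. Depth did not keep any member but Timm8a2 and Tomm20l from being tested.

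The replicate numbers in the titles and in the descriptions differ for Dnm2 +/K562E mice, and neither paired the mice. Mice with the same number deviated from their group means with a correlation of -0.11 by title and -0.030 by description, as a mean over the 4 numbers, and not every mouse correlated best with its own number. The fit with a replicate block gave 21 lower members by title and 23 by description, with none higher.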
